A study of Danio rerio with 26 samples.

Results

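The 10 genes described here mark the progenitors of the zebrafish nervous system, and the steps by which these cells become neurons, and were measured in 22 RNA-Seq libraries. They were chosen by gene symbol, as a set of known neural progenitor and proneural genes, at a time when earlier results of these data were known. Each of the 10 genes was found as 1 row of the 30919 in the *magoh* table at 21 hpf (hours post fertilization), of the 30948 in the *rbm8a* table at 21 hpf, of the 30944 in the *rbm8a* table at 27 hpf and of the 28441 in the *upf1* table at 12 hpf. Levels are given as FPKM, fragments per kilobase of transcript scaled by a size factor of each library, which is a level per length. Each table was normalized on its own. The size factors did not follow the number of reads in every table, so FPKM is not a share of the reads of a library.

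*rbm8a* and *magoh* encode core proteins of the exon junction complex (EJC), which is left on spliced mRNA, and *upf1* encodes the central factor of nonsense-mediated mRNA decay (NMD). Mutant embryos were homozygous for the CRISPR-made frame-shifting deletions *rbm8a* oz36 or *magoh* oz37, each a single allele in the AB strain, and were compared with siblings that carried at least 1 intact copy, wild type and heterozygous together (3 libraries in each group at each stage). The *upf1* morphants carried a splice-blocking morpholino (*upf1* MO) injected at the 1-cell stage and were compared with uninjected controls at 12 hpf (2 libraries in each group). Homozygous mutants start with maternal Rbm8a and Magoh, a morpholino lowers its target in part, and every library was made from pooled whole embryos. In such bulk samples, fewer cells of a type and less RNA per cell cannot be told apart.

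In the vertebrate neural plate, SoxB1 factors hold cells in a dividing progenitor state, and proneural basic helix-loop-helix (bHLH) factors drive chosen cells out of it. Proneural factors switch on Notch ligands such as the Delta proteins, and Notch signalling in neighbouring cells raises Hes/Her repressors that hold the proneural genes down. Radial glia, which line the ventricle and serve as progenitors, carry the intermediate filaments Gfap and Nestin. *sox2* (ENSDARG00000070913) and *sox3* (ENSDARG00000053569) encode the SoxB1 factors. *gfap* (ENSDARG00000025301) and *nes* (ENSDARG00000088805) encode the filament proteins. *ascl1a* (ENSDARG00000038386), *ascl1b* (ENSDARG00000101628), *neurog1* (ENSDARG00000056130) and *atoh1a* (ENSDARG00000055294) encode proneural bHLH factors; *neurod1* (ENSDARG00000019566) and *neurod4* (ENSDARG00000003469) encode bHLH factors that act later, in differentiating neurons. The study's annotation places an intron of *ascl1a* in its 3′UTR close to the stop codon. The study proposes that some mRNAs with such an intron are regulated by NMD, and that many others may not be. Which of these holds for *ascl1a* was not tested. In vertebrates *sox2* lies within the non-coding gene *sox2ot*, and how reads shared by overlapping genes were counted is not given in the sources used here, so *sox2* values are uncertain in that respect.

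Whole reads recovered from the FPKM gave 14884582 to 24086370 reads per library in the *magoh* table, 1561184 to 71708299 in the *rbm8a* table at 21 hpf, 9193992 to 95877745 in the *rbm8a* table at 27 hpf and 73345144 to 93157779 in the *upf1* table. In FPKM the targeted genes did not separate the labelled groups of the mutants. *magoh* had 17.0, 3.67 and 3.58 FPKM in libraries labelled *magoh* mutant, against 4.42, 13.6 and 6.51 FPKM in those labelled sibling. These values came from 80, 90 and 90 reads, against 74, 130 and 119 reads. The libraries held 19536839, 23618644 and 24086370 reads in all, against 14884582, 16887639 and 16668131. As a share of reads, *magoh* was thus lower in every library labelled mutant than in any labelled sibling. *rbm8a* had 7.01, 7.28 and 8.39 FPKM in libraries labelled *rbm8a* mutant at 21 hpf, against 6.99, 13.2 and 13.3 FPKM in those labelled sibling. At 27 hpf it had 3.69, 3.65 and 14.4 FPKM in libraries labelled mutant, against 2.82, 12.7 and 10.7 FPKM in those labelled sibling. In all 3 tables the groups overlapped in FPKM, and as a share of reads *rbm8a* overlapped in both of its tables. Every value below that follows the labels therefore belongs to the library labelled mutant or sibling. Whether each label matches the genotype of its library was not tested, so these values may not be contrasts of genotype. The study, by contrast, reports lower *rbm8a* and *magoh* transcripts in the respective mutants, and other genes changed in both directions, from a test of counts. That test was not rerun here. The overlap in FPKM, and the lack of mutant genes passing the test below, therefore do not show that the mutants were unchanged. In the morphants *upf1* was at 30.3 and 31.3 FPKM, below 45.2 and 45.9 FPKM in the controls (log2 fold change -0.55, SE 0.04, adjusted p = 0.00104 by limma). In the *magoh* table the libraries labelled mutant replicate 1 and sibling replicate 2 stood apart. Over 30281 genes their log2 values correlated at r = 0.95 with each other, and at 0.68 to 0.76 with the other libraries of that table. Those other libraries correlated with each other at 0.91 to 0.96. In the *rbm8a* table at 21 hpf the library labelled mutant replicate 2 stood apart and was also the shallowest. The members' values in these libraries are described separately below.

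All 9 members that could be tested were lower in both *upf1* morphant libraries than in either control, and 2 of them, *gfap* and *ascl1b*, passed the test. A call here needs both an adjusted p below 0.05 and a change of more than 1.5-fold on the log2(FPKM + 1) scale. Of the 17057 genes tested with limma, 1.18% were called lower and 1.12% higher. The median log2 fold change of the 9 members was -0.37, and that of all genes tested was 0.00. Without the fold threshold, 7 of the 9 members were lower at an adjusted p under 0.05, as were 12.8% of all genes tested. Groups of 2 libraries that did not overlap, with the morphants lower, were seen for 33.9% of all genes tested.

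**Figure D1:**
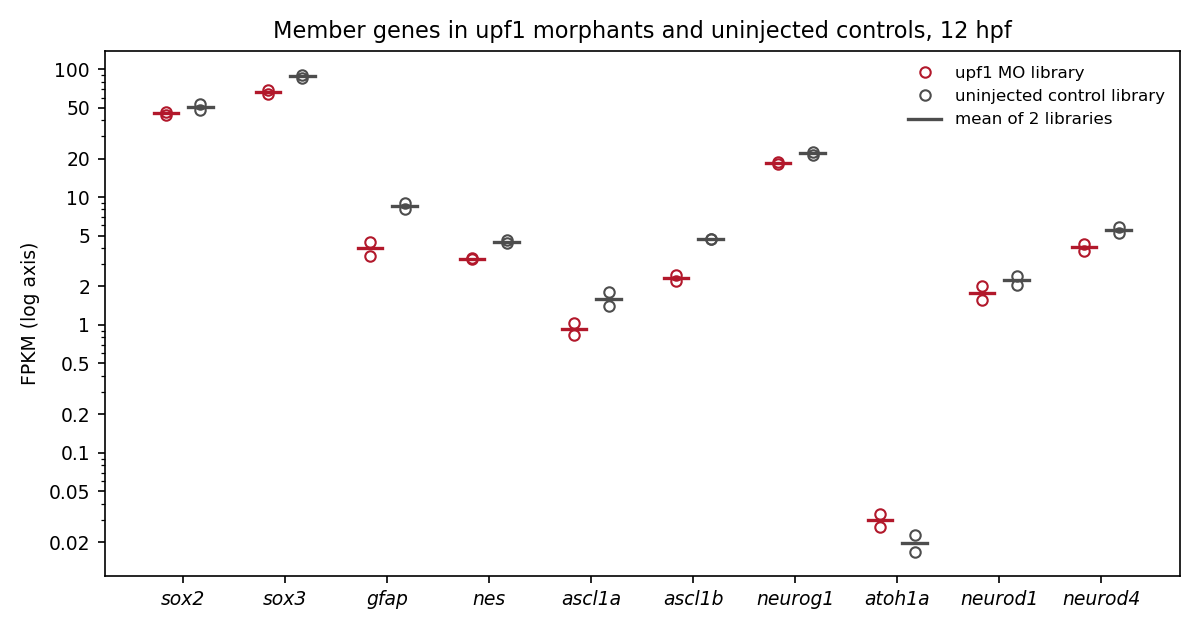
FPKM of the 10 genes on a log axis in each *upf1* MO library (red circles) and each uninjected control library (grey circles) at 12 hpf, with bars at the mean of 2 libraries. The morphant circles lie below the control circles for every gene but *atoh1a*, which was at or below 0.033 FPKM in all 4 libraries.

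*gfap*, the astroglial and radial glial filament gene, had the largest log2 fold change of the members. It was at 4.46 and 3.46 FPKM in morphants, against 8.97 and 8.06 FPKM in controls, from 860 to 1736 reads per library. The morphant mean of 3.96 ± 0.71 FPKM and the control mean of 8.52 ± 0.64 FPKM (SD, n = 2 each) were further apart than the spread within either group, and the log2 fold change was -0.94 (SE 0.11, 95% interval -1.20 to -0.69, limma adjusted p = 0.00377). *nes*, which encodes the progenitor filament protein Nestin, was at 3.28 and 3.31 FPKM in morphants, against 4.36 and 4.62 FPKM in controls. Its log2 fold change of -0.35 (SE 0.06, limma adjusted p = 0.0122) stayed under the fold threshold.

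Among the proneural genes, *ascl1b* fell to 2.46 and 2.19 FPKM in morphants, against 4.69 and 4.70 FPKM in controls. Its log2 fold change was -0.78 (SE 0.07, 95% interval -0.95 to -0.61, limma adjusted p = 0.00204). Its paralogue *ascl1a* was at 1.04 and 0.832 FPKM in morphants, against 1.41 and 1.81 FPKM in controls, a ratio of means of 0.583. Because 1 is added to each FPKM, the log2 scale understates the change of so low a gene: its log2 fold change was -0.43 (SE 0.11, limma adjusted p = 0.0343). With a pseudocount of 0.1 it was -0.72 and was called lower (limma adjusted p = 0.0353, range 0.0197 to 0.165 over 10 alternatives). *ascl1a* was thus a member whose call depended on the pseudocount. *neurog1*, which drives the first neurons and sensory ganglia, was at 18.8 and 18.2 FPKM in morphants, against 22.7 and 21.5 FPKM in controls (log2 fold change -0.25, SE 0.05, limma adjusted p = 0.0146). *atoh1a*, the proneural gene of the hindbrain rhombic lip and of hair cells, had 5 and 4 reads in morphants, against 2 and 3 reads in controls. That is under the minimum level, so it was not tested, and so few reads cannot show whether the groups differed.

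The differentiation factors, like every other tested member, had log2 fold changes nearer 0 than *gfap* and *ascl1b*. *neurod4* was at 4.32 and 3.80 FPKM in morphants, against 5.79 and 5.28 FPKM in controls (log2 fold change -0.37, SE 0.08, limma adjusted p = 0.0205). *neurod1* was at 2.0 and 1.58 FPKM in morphants, against 2.43 and 2.06 FPKM in controls, and did not pass the test (log2 fold change -0.22, 95% interval -0.47 to 0.03, limma adjusted p = 0.171).

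The SoxB1 genes were the most abundant members at this stage. *sox3* was at 68.8 and 64.0 FPKM in morphants, against 90.8 and 85.2 FPKM in controls, a log2 fold change of -0.40 (SE 0.05, limma adjusted p = 0.00539) that stayed under the fold threshold. *sox2* was at 46.6 and 43.7 FPKM in morphants, against 53.4 and 48.4 FPKM in controls (log2 fold change -0.17, 95% interval -0.31 to -0.03, limma adjusted p = 0.0844). The ratio of morphant to control means was 0.755 for *sox3* and 0.887 for *sox2*, against 0.465 for *gfap* and 0.495 for *ascl1b*. The non-coding *sox2ot* was at 3.23 and 2.98 FPKM in morphants, against 3.52 and 2.82 FPKM in controls, and the groups overlapped.

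Few other genes of the same programme were called. Of the 7 other SoxB genes tested, 1 was called, *sox21b*, a SoxB2 gene, which fell to 3.99 and 3.73 FPKM in morphants, against 7.32 and 6.15 FPKM in controls (log2 fold change -0.67, limma adjusted p = 0.0054). The call was lost without control replicate 1, at -0.56. Of 13 other radial glial and neuroepithelial genes tested, 1 was called, *pax6a*, a regulator of forebrain, eye and spinal cord progenitors, which fell to 6.66 and 6.94 FPKM in morphants, against 12.1 and 11.4 FPKM in controls (log2 fold change -0.71, limma adjusted p = 0.00131). Over all genes tested 1.18% were called lower. At an unadjusted p under 0.05 by limma, 1 of the 7 other SoxB genes was higher and 4 were lower. Of the 13 radial glial genes 2 were higher and 6 lower at that p. Both lists thus held a larger share of lower genes than the 20.2% of all genes. None of 30 Notch pathway genes was called by limma, and 6 were higher and 8 lower at an unadjusted p under 0.05. Over all genes tested 18.7% were higher and 20.2% lower at that p, so that the Notch pathway counts lay near the background. The Notch-modifying glycosyltransferase gene *lfng* had the smallest p of them (log2 fold change 0.46, limma adjusted p = 0.0012), followed by *her2*, a Hes/Her repressor gene (-0.49, limma adjusted p = 0.00171). None of 5 other proneural and neuronal bHLH genes was called by limma, with 0 higher and 1 lower at an unadjusted p under 0.05. The lowest p belonged to *bhlhe22* (log2 fold change -0.22, limma adjusted p = 0.0825) and *nhlh2* (-0.21, limma adjusted p = 0.135). Of 15 genes of postmitotic neurons none was called by limma, with 1 higher and 8 lower at an unadjusted p under 0.05, against the 18.7% and 20.2% of all genes. Among them *elavl3*, the pan-neuronal HuC gene, had a log2 fold change of -0.30 (limma adjusted p = 0.0101) and *tubb5* one of -0.34 (limma adjusted p = 0.00539). The median log2 fold changes of these lists were -0.11 for other SoxB genes, -0.08 for radial glial genes, -0.07 for the Notch pathway, -0.09 for other bHLH genes and -0.16 for neurons.

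Genes of cell stress and markers of some other tissues moved beside the members in the morphants. *phlda3* reached 46.1 and 53.8 FPKM in morphants, against 3.60 and 4.0 FPKM in controls, and *mdm2*, which encodes a ubiquitin ligase, reached 62.7 and 74.2 FPKM in morphants, against 13.7 and 14.4 FPKM in controls. The log2 fold change was 2.84 for *gadd45aa* and 1.18 for *baxa*, a pro-apoptotic gene, and all 4 of these genes were called higher. The study lists *phlda3* among genes with a 3′UTR intron close to the stop codon. It counts *gadd45aa* as orthologous to a known human NMD target. Whether the rise of either gene came from lost decay was not tested. Of 15 proliferation genes none was called by limma, with 3 higher and 6 lower at an unadjusted p under 0.05, against 18.7% and 20.2% of all genes; *top2a* was at -0.43 (limma adjusted p = 0.00154) and *mki67* at -0.32 (limma adjusted p = 0.00421). The summed level of 5 skeletal muscle markers was 11.3 to 12.6 FPKM in morphants, against 17.4 to 17.6 FPKM in controls. That of 2 neural crest markers was 5.84 to 6.36 FPKM in morphants, against 9.35 to 9.80 FPKM in controls. Of these 2 markers, 1 was at 0 FPKM in both morphant libraries and in control replicate 1, so their sum rests mainly on 1 gene. The sum of 3 notochord markers was 69.5 to 71.3 FPKM in morphants, against 76.6 to 80.2 FPKM in controls. Of all genes tested, 33.9% were likewise lower in morphants without overlap. The sum of 5 skin markers was 5165 to 5690 FPKM in morphants, against 5586 to 5824 FPKM in controls, and overlapped. The part of these changes in the members' lower levels was not tested.

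At 27 hpf none of the 10 members was called between libraries labelled *rbm8a* mutant and sibling, and 0% of the 28845 genes tested were called by limma (1792 were higher and 2491 lower at an unadjusted p under 0.05). Of the members, 8 had a log2 fold change above 0, with a median of 0.39 over the 10, against 0.01 over all genes tested. The 95% intervals of the members reached from -1.12 to 1.38. *nes* was the only member with an unadjusted p under 0.05 and a higher level, a condition met by 6.21% of all genes tested. *nes* was at 5.83, 5.81 and 5.06 FPKM in libraries labelled mutant, against 2.52, 3.94 and 3.81 FPKM in those labelled sibling (log2 fold change 0.57, 95% interval 0.04 to 1.09, limma adjusted p = 0.333). *sox2* was at 9.63, 7.35 and 9.51 FPKM in libraries labelled mutant, against 4.1, 6.63 and 6.06 FPKM in those labelled sibling (log2 fold change 0.60, 95% interval -0.02 to 1.22, limma adjusted p = 0.342). These were the only members whose labelled groups did not overlap at 27 hpf. Both were higher in libraries labelled mutant, as was the case for 10.5% of all genes tested.

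The other members overlapped between the labelled groups at 27 hpf. *sox3* was at 17.8, 13.6 and 23.9 FPKM in libraries labelled mutant, against 8.48, 20.1 and 11.1 FPKM in those labelled sibling (log2 fold change 0.56). *neurod4* was at 5.23, 3.12 and 7.63 FPKM in libraries labelled mutant, against 1.92, 4.26 and 3.65 FPKM in those labelled sibling (log2 fold change 0.60). The members below 0 were *atoh1a* and *ascl1b*, at -0.32 and -0.23 on the log2 scale, while *ascl1a*, the paralogue of *ascl1b*, was above 0. *atoh1a* was at 0.332, 0.185 and 0.558 FPKM in libraries labelled mutant, against 0.400, 0.803 and 0.926 FPKM in those labelled sibling. It was the lowest member here, with 6 to 282 reads per library. Sums of markers of some other tissues did not overlap between the labelled groups. The sum of 5 muscle markers was 522 to 761 FPKM in libraries labelled mutant, against 296 to 473 FPKM in those labelled sibling. That of 5 skin markers was 1149 to 1745 FPKM in libraries labelled mutant, against 503 to 1119 FPKM in those labelled sibling. The sum of 2 macrophage markers was 1.70 to 3.35 FPKM in libraries labelled mutant, against 3.37 to 6.08 FPKM in those labelled sibling, and that of 5 erythroid markers was 284 to 574 FPKM in libraries labelled mutant, against 154 to 382 FPKM in those labelled sibling, and overlapped. The sum of 26 postmitotic neuron genes was 97.2 to 123 FPKM in libraries labelled mutant, against 79.3 to 124 FPKM in those labelled sibling, and overlapped. Sums of notochord, lens and neural crest markers overlapped as well. Of all genes tested, 10.5% were higher and 9.92% lower in libraries labelled mutant without overlap. The libraries also differed in their summed FPKM. It was 6486820, 3978680 and 6040930 in libraries labelled mutant, against 2329160, 5071630 and 1665060 in those labelled sibling. The part of these marker sums, or of the summed FPKM, in the members' values at 27 hpf, *nes* and *sox2* included, was not tested.

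No gene of the other lists was called at 27 hpf. The smallest p in each list belonged to *notch1a* (log2 fold change 0.79, limma adjusted p = 0.327), a Notch receptor gene, and *her9* (0.63) in the Notch pathway, to *glula* (0.96, limma adjusted p = 0.333) and *fabp7a* (0.82) among radial glial genes, and to *sox14* (-0.35) and *sox19a* (0.66) among other SoxB genes. In the other bHLH genes they were *atoh1c* (-0.63, limma adjusted p = 0.333) and *atoh8* (0.41), and among neurons *phox2a* (-0.69, limma adjusted p = 0.323) and *snap25b* (-0.46). Of the 31 Notch pathway genes 25 had a log2 fold change above 0, with a median of 0.37, and of 15 proliferation genes 14 did, with a median of 0.60, led by *mcm3* (0.85) and *ccnb1* (0.70). The lists nearest to the members did not share this direction: of 7 other SoxB genes 1, *sox19a*, was above 0, with a median of -0.08, and of 14 other bHLH genes 5 were, also with a median of -0.08. Of 15 radial glial genes 11 were above 0, with a median of 0.14, and of 26 neuron genes 15, with a median of 0.04. When sibling replicate 2 was left out, 612 genes were called, of which none was a member.

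**Figure D2:**
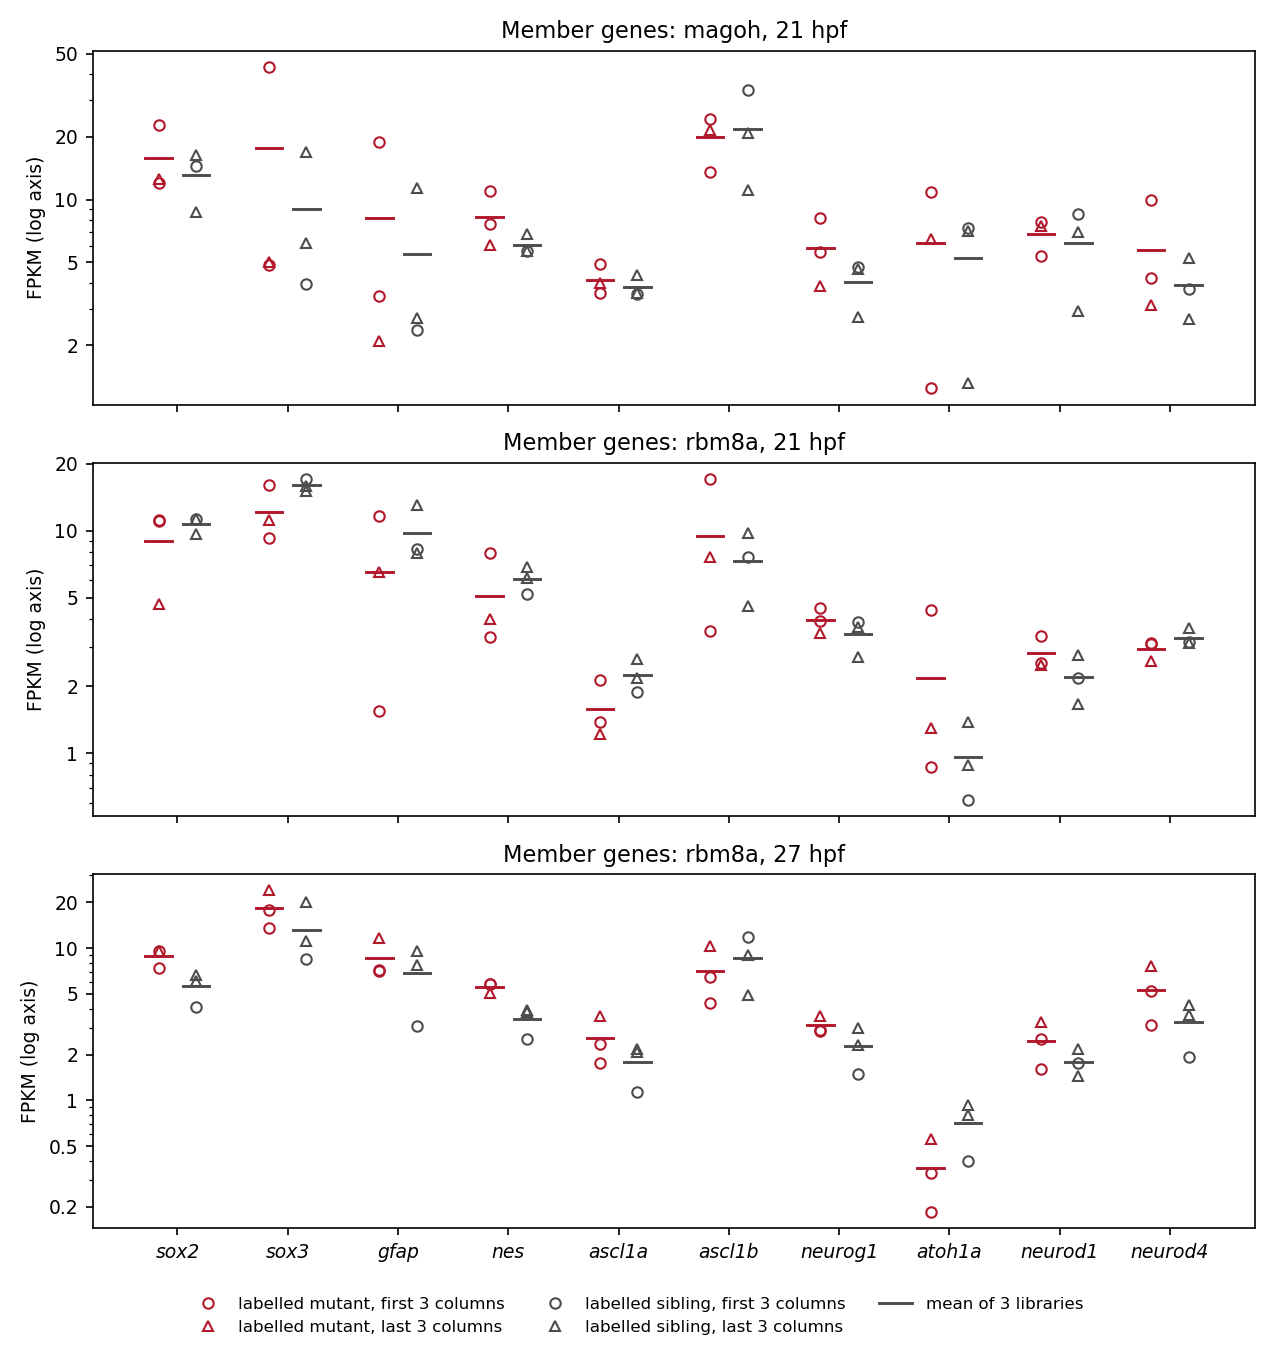
FPKM of the 10 genes on a log axis in each library labelled mutant (red, left) and sibling (grey, right) of the *magoh* table at 21 hpf and the *rbm8a* tables at 21 and 27 hpf. Circles are the first 3 and triangles the last 3 library columns of a table, and bars are means of 3 libraries. At 27 hpf the red and grey symbols of *sox2* and *nes* are apart, while those of the other genes overlap.

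At 21 hpf in the *rbm8a* table, 7 of the 10 members were below 0, with a median log2 fold change of -0.21, against 0.00 over all genes tested. None was called, and none had an unadjusted p under 0.05. The labelled groups overlapped for all 10. Of the 30411 genes tested, 0% were called by limma, with 235 higher and 425 lower at an unadjusted p under 0.05. Log2 fold changes reached from -0.40 for *sox2* (95% interval -1.27 to 0.48) to 0.22 for *atoh1a* (95% interval -0.28 to 0.73). The intervals of all 10 included 0. *sox2* was at 11.0, 11.2 and 4.67 FPKM in libraries labelled mutant, against 11.3, 11.3 and 9.68 FPKM in those labelled sibling. Its low value came from mutant replicate 3, where it rests on 32 reads in a library of 3063243 reads. Without that library the median of the members was -0.01, and without mutant replicate 1 instead it was -0.38. *ascl1a* had 45, 8 and 8 reads in libraries labelled mutant, against 56, 126 and 466 reads in those labelled sibling, or 2.14, 1.38 and 1.22 FPKM in libraries labelled mutant, against 1.89, 2.19 and 2.67 FPKM in those labelled sibling (log2 fold change -0.30, 95% interval -0.83 to 0.23). *neurod4* differed least among libraries, at 3.10, 3.12 and 2.61 FPKM in libraries labelled mutant, against 3.16, 3.12 and 3.65 FPKM in those labelled sibling.

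No other gene of the progenitor programme was called at 21 hpf in the *rbm8a* table. The smallest p belonged to *tal2*, a bHLH gene of midbrain neurons (log2 fold change -0.69, limma adjusted p = 1.00), and *neurog3* (-0.68). In the Notch pathway they belonged to *her4.1* (-0.40), one of several near-identical copies among which reads can be split, and to *dll4* (-0.41). The 31 Notch pathway genes had a median of -0.13, with 8 above 0, and 26 neuron genes one of -0.10, with 8 above 0. Of 7 other SoxB genes 2 were above 0, with a median of -0.09, and of 15 proliferation genes 5, with a median of -0.05. The other bHLH genes had 10 of 15 above 0, with a median of 0.11, and radial glial genes 9 of 15, with a median of 0.03. Other genes with the smallest p of their list were *sox14* (0.22) and *sox19a* (-0.24), *fabp7b* (-0.36) and *sox9a* (-0.19), *onecut1* (-0.40) and *stmn2b* (-0.48), *plk1* (-0.27) and *cdk1* (-0.30), and *casp8* (0.95) and *ccng1* (0.66). Without mutant replicate 1, 26 genes were called, of which none was a member.

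In the *magoh* table at 21 hpf all 10 members were above 0, with a median log2 fold change of 0.26, against 0.05 over all genes tested. None was called, none had an unadjusted p under 0.05, and the labelled groups overlapped for all 10. Of the 30281 genes tested, 0% were called by limma, with 730 higher and 602 lower at an unadjusted p under 0.05. The log2 fold change was largest for *neurog1*, at 0.42 (95% interval -0.28 to 1.12), and smallest for *ascl1b*, at 0.02 (95% interval -0.59 to 0.64). *neurog1* was at 8.17, 5.63 and 3.87 FPKM in libraries labelled mutant, against 4.75, 2.75 and 4.63 FPKM in those labelled sibling. The size of the median depended on the libraries that stood apart: without mutant replicate 1 it was 0.02 and without sibling replicate 2 it was 0.11, with 7 of 10 members above 0 in each case. Without both of these libraries, and with no unwanted-variation factor, it was 0.03 with 5 of 10 members above 0.

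**Figure D3:**
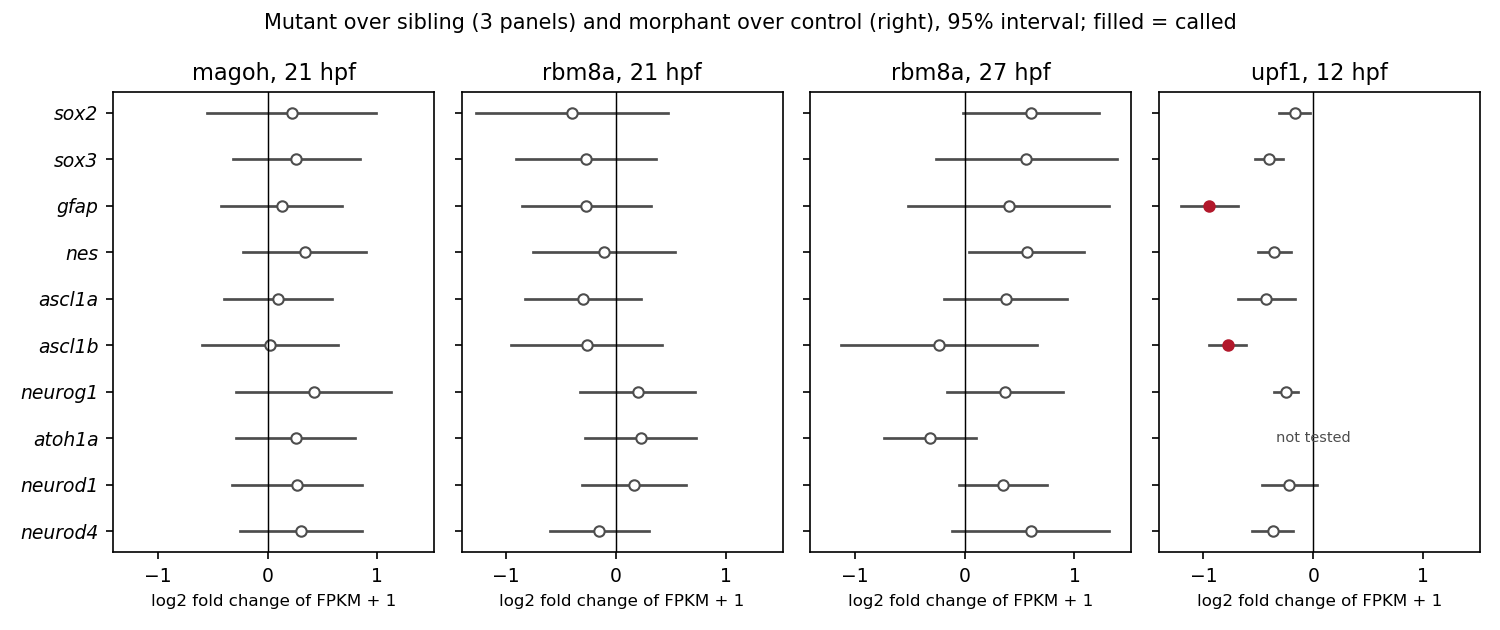
Log2 fold change of FPKM + 1 with its 95% interval for each of the 10 genes. The first 3 panels show libraries labelled mutant over those labelled sibling, and the panel on the right *upf1* morphants over controls. Filled red circles mark *gfap* and *ascl1b*, the members that were called; intervals of the mutant panels span 0 for every gene except *nes* at 27 hpf.

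Other lists of the *magoh* table held no call either. The smallest p belonged to *neurod2* (log2 fold change -0.66, limma adjusted p = 0.847) and *olig4* (0.77) among bHLH genes, *her4.4* (-0.58) and *her4.1* (-0.68) in the Notch pathway, *fabp7a* (-0.80) and *vim* (0.45) among radial glial genes, *sox19a* (0.27) and *sox14* (-0.25) among other SoxB genes, and *phox2bb* (0.37) and *stmn2a* (-0.44) among neurons. *aurka* (0.51) and *pcna* (0.43) had the smallest p among proliferation genes. The median was -0.21 for the other bHLH genes, with 6 of 15 above 0, 0.02 for other SoxB genes, with 6 of 7 above 0, 0.09 for the Notch pathway, with 20 of 31 above 0, and 0.06 for radial glial genes, with 9 of 15 above 0. It was 0.09 for neuron genes, with 15 of 26 above 0, and 0.20 for proliferation genes, with 12 of 15 above 0.

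At 21 hpf levels of some members also differed between kinds of library that did not follow the labels. In all, 5 libraries had a summed FPKM below 1000000: in the *magoh* table those labelled mutant replicates 2 and 3 and sibling replicates 1 and 3, and in the *rbm8a* table that labelled mutant replicate 2. In the *magoh* table these sums did not follow depth: the libraries with a high sum, mutant replicate 1 and sibling replicate 2, had 19536839 and 16887639 reads. What set the sums was not tested. FPKM per read differed with them: *gfap* had 321 reads at 18.9 FPKM in mutant replicate 1. In mutant replicate 2, with 23618644 reads, it had 307 reads at 3.47 FPKM. Gaps in FPKM between these kinds of library therefore do not give gaps in share of reads. Of the 10 members in the *magoh* table, 3 (*ascl1b*, *neurod1* and *atoh1a*) were higher without overlap in the 4 libraries with a low sum, as were 30.1% of all genes tested, and 3 (*gfap*, *sox3* and *neurod4*) were lower without overlap, as were 30.5% of all genes, shares close to those of the members. *ascl1a*, *neurog1*, *sox2* and *nes* overlapped in FPKM. As a share of reads, *neurod4* overlapped instead, and *ascl1a*, *neurog1*, *sox2* and *nes* were lower in the libraries with a high sum. On that basis *ascl1b*, *neurod1*, *atoh1a*, *gfap* and *sox3* stayed apart in the same direction as in FPKM. In the *magoh* table *gfap* was at 18.9 and 11.4 FPKM in the libraries with a sum over 1000000, labelled mutant and sibling, and at 2.10 to 3.47 FPKM in the 4 with a sum under 1000000. *sox3* was at 43.3 and 17.0 FPKM in the same 2 libraries and at 3.95 to 6.21 FPKM in the other 4. *gfap* and *sox3* were thus high where *atoh1a* was low, at 1.24 and 1.32 FPKM in the 2 libraries against 6.48 to 10.9 FPKM in the 4. In reads, *gfap* had 321 and 394 in the 2 libraries, against 144 to 307 in the 4. *sox3* had 490 and 392 reads, against 159 to 304, and *atoh1a* 13 and 28 reads, against 272 to 592. *ascl1b* followed *atoh1a*, at 13.6 and 11.1 FPKM in the 2 libraries and 20.9 to 33.7 FPKM in the 4.

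In FPKM the single such library of the *rbm8a* table lay above the other 5 for *ascl1b*, *neurod1* and *atoh1a*, as for 34.5% of all genes tested. It lay below them for *gfap*, *sox3* and *nes*, as for 39.6% of all genes. For the other 4 members it lay within their range. As a share of reads, it lay within the range of the other 5 for *sox3* and *nes*, and above it for *sox2*, *neurog1* and *neurod4*. Its *gfap* was at 1.54 FPKM, against 6.50 to 13.1 FPKM in the other 5, and its *sox3* at 9.28 FPKM, against 11.1 to 17.1 FPKM. Its *atoh1a* was at 4.39 FPKM, against 0.615 to 1.39 FPKM in the other 5, and its *ascl1b* at 17.1 FPKM, against 3.54 to 9.80 FPKM. These rest on 12 reads for *gfap* and 21 for *atoh1a* in that library. The non-coding *sox2ot* separated the kinds of library further, at 117 to 143 FPKM in the 4 *magoh* libraries with a low sum and 90.4 FPKM in the *rbm8a* library, against 4.07 and 13.7 FPKM and 2.61 to 10.9 FPKM in the libraries with a high sum. *sox2* itself overlapped in FPKM, at 12.0 to 16.3 FPKM in the 4 *magoh* libraries with a low sum and 22.9 and 8.72 FPKM in the others. Skin markers summed to 122 to 145 FPKM in the 4 *magoh* libraries with a low sum, against 761 and 3007 FPKM in the others, and muscle markers to 49.7 to 66.2 FPKM, against 277 and 774 FPKM. The part of these markers, or of how the libraries were made, in the members' values was not tested.

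**Figure D4:**
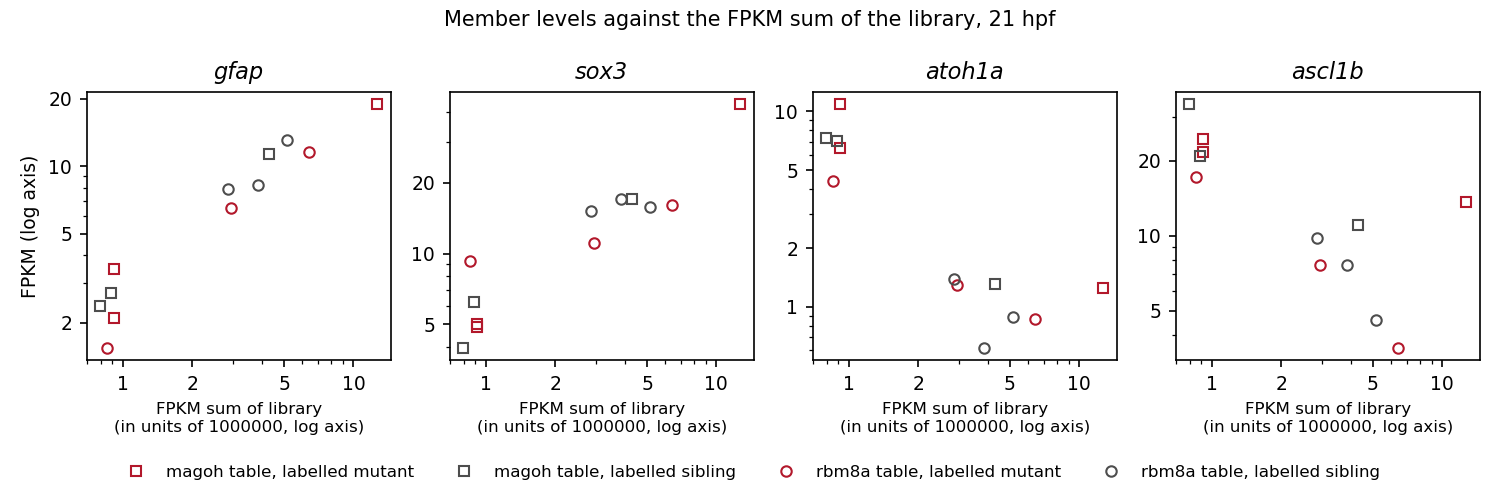
FPKM of *gfap*, *sox3*, *atoh1a* and *ascl1b* against the summed FPKM of the library, both on log axes, for the 12 libraries of 21 hpf; squares are the *magoh* table, circles the *rbm8a* table, red labelled mutant and grey labelled sibling. The 5 libraries on the left, of both labels, are low in *gfap* and *sox3* and high in *atoh1a* and *ascl1b*; the tables were normalized separately.

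Within the mutant tables the library columns were also read by place, the first 3 against the last 3, which puts 2 libraries labelled mutant and 1 labelled sibling in the first 3. This division is a description, without a test. *rbm8a* was at 6.99 to 7.28 FPKM in the first 3 columns and 8.39 to 13.3 FPKM in the last 3 at 21 hpf, and at 2.82 to 3.69 and 10.7 to 14.4 FPKM at 27 hpf. In the *magoh* table *magoh* overlapped by place, at 3.67 to 17.0 FPKM in the first 3 columns and 3.58 to 13.6 FPKM in the last 3. Among the members, only *neurog1* did not overlap between these columns at 21 hpf, in both tables. It was at 4.75 to 8.17 FPKM in the first 3 columns and 2.75 to 4.63 FPKM in the last 3 of the *magoh* table, where 1.87% of genes were higher in the first 3 without overlap. In the *rbm8a* table it was at 3.88 to 4.51 FPKM in the first 3 columns and 2.72 to 3.69 FPKM in the last 3, where 2.88% of genes were higher in the first 3 without overlap. At 27 hpf *atoh1a* and *gfap* did not overlap, both lower in the first 3, as 3.45% of genes did. *gfap* was at 3.06 to 7.19 FPKM in the first 3 columns and 7.79 to 11.6 FPKM in the last 3, and *atoh1a* at 0.185 to 0.400 and 0.558 to 0.926 FPKM.

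The order of the members' levels is given within each table. Stage cannot be told apart from library type, since the libraries of 12 hpf were polyA-selected and those of 21 and 27 hpf depleted of ribosomal RNA. At 12 hpf the order in morphants was *sox3*, *sox2*, *neurog1*, *neurod4*, *gfap*, *nes*, *ascl1b*, *neurod1*, *ascl1a* and *atoh1a*, and of the 9 neighbouring pairs only *neurod4* and *gfap* overlapped. In controls none of the 9 neighbouring pairs overlapped, and *gfap*, at 8.52 FPKM, came before *neurod4*, at 5.54 FPKM, and *ascl1b*, at 4.69 FPKM, before *nes*, at 4.49 FPKM. At 27 hpf *sox3* led with a mean of 18.4 ± 5.2 FPKM in libraries labelled mutant and 13.2 ± 6.1 FPKM in those labelled sibling (SD, n = 3 each). *atoh1a* was last at 27 hpf, with 0.358 ± 0.188 FPKM in libraries labelled mutant and 0.710 ± 0.275 FPKM in those labelled sibling (SD, n = 3 each), and 7 of 9 neighbouring pairs overlapped in each group. In the *rbm8a* table at 21 hpf 8 of 9 pairs overlapped among libraries labelled mutant and 5 of 9 among those labelled sibling. Of the pairs in the *magoh* table, 8 of 9 overlapped among libraries labelled mutant and 9 of 9 among those labelled sibling, so that hardly any order was resolved there.

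Across the 22 libraries, with each gene centred within its table, levels of some members followed each other. The Pearson correlation of log2 levels was 0.87 between *gfap* and *sox3*, 0.83 between *neurod4* and *sox3* and 0.73 between *neurog1* and *sox2*, and it was lowest between *ascl1b* and *gfap*, at -0.60. Of 13936 genes that passed the filter in all 4 tables, those most like *gfap* were *tuba1c* and *mdka* (r = 0.96 each), and those most like *sox3* were *apoa4b.2* and *rps26l* (r = 0.98 each). *nes* was closest to *lrig1* (0.95) and *ogt.1* (0.93), and *sox2* to *sin3b* (0.93) and *pik3c2b* (0.91). The proneural gene *neurog1* was closest to *tnksa* (0.91) and *ankrd13c* (0.87), *ascl1b* to *pea15* and *pak6b* (0.90 each) and *ascl1a* to *zgc:174160* (0.85) and *si:ch73-15b2.5* (0.74). *neurod4* was closest to *luc7l* (0.91) and *col1a2* (0.88), and *neurod1* to *si:ch73-52f15.5* (0.88) and *fam21c* (0.87). These values describe libraries that share a table and a scaling, include the libraries that stood apart, and carry no test; *atoh1a* did not pass the filter in every table and has no such value.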

How the data were processed

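The authors mapped reads to GRCz10 (TopHat2 2.0.14, cutadapt 1.16 per the labels), counted them per gene and deposited FPKM scaled by size factors, with a mean of normalized counts per gene, a signal averaged over libraries. Their tables also hold log2 fold changes, standard errors, test scores and p-values from DESeq2, which were not used. Mutant libraries were depleted of ribosomal RNA and strand-specific, and replicates came from different sequencing runs; *upf1* libraries were polyA-selected. The RIP-Seq table (Rbm8a-bound RNA) was not analysed here.

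Libraries were grouped by their labels. A gene entered the test when enough libraries to fill the smaller group reached an FPKM of 0.5, and log2(FPKM + 1) was fitted in limma 3.58.1 (R 4.3.3; trended prior, Benjamini-Hochberg adjustment over all genes of a table). The model held the group and, in the mutants, 1 factor of unwanted variation estimated in the manner of RUVs, from same-label libraries. How many factors the authors used is not given in the sources used here. The model was also run on simulated data, in which the changed genes were drawn from those of higher level and lower spread. That run cannot show how well low or variable members would be called. Because the values are FPKM, no count test was run; whole reads were recovered from the smallest step of each library (100% of values within 0.05 of a whole number), so that depth per library is known. P-values measure the spread between these libraries, which may be technical.

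Members and lists were chosen with earlier results of these data known. Named genes are the 10 members, the targeted genes, of each list the called genes (at most 4 by smallest p) or, with none called, the 2 with the smallest p, and the 2 genes most like each member; marker lists are given by their sums. The counts of 1 list, and in 2 tables its genes, are not reported here. List symbols were matched to the files by symbol or identifier. Alternatives were another pseudocount (0.1), other filters, quantile normalization, 0 or 2 RUVs factors, a replicate block, each library left out in turn and, chosen after seeing the data, scaling by recovered reads in the *upf1* table and the *magoh* table without the 2 libraries that stood apart. Python 3.11.15 (numpy 2.4.6, pandas 2.3.3, matplotlib 3.10.9) was used for levels and figures.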

Additional observations from a re-analysis of the deposited data

How the results depend on the processing

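Under every alternative run, 0 members were called in the mutant comparisons, and *gfap* and *ascl1b* stayed called lower in the morphants. All 9 tested members also stayed below 0 there. In the morphants 901 genes were called with a pseudocount of 0.1, *ascl1a* among them, against 393 in the main test, and 389 to 506 with 1 library left out, where the lone library of a group is assumed to vary like the other group. Leaving out each library gave 0 to 26 calls among all genes for *rbm8a* at 21 hpf (26 without mutant replicate 1) and 0 to 612 at 27 hpf (612 without sibling replicate 2), and 2 RUVs factors gave 32 at 27 hpf. The cause was not tested.

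The direction of uncalled log2 fold changes turned in these cases. In the *magoh* table *ascl1b* was at -0.30 and *sox2* at -0.041 under quantile normalization, and *ascl1b* was at -0.041 without an RUVs factor and with a replicate block. Without both libraries that stood apart, an alternative chosen after seeing the data, *ascl1b* was at -0.20, *neurog1* at -0.0023, *neurod1* at -0.020, *sox2* at -0.30 and *sox3* at -0.010. With 1 library left out *ascl1b* ranged from -0.22 to 0.27, *neurod1* from -0.034 to 0.42, *gfap* from -0.042 to 0.39, *sox2* from -0.28 to 0.41 and *sox3* from -0.047 to 0.42. In the *rbm8a* table at 21 hpf, both without an RUVs factor and with a replicate block, *ascl1b* was at 0.15, *stmn2b* at 0.11 and *onecut1* at 0.092. With 1 library left out *ascl1b* ranged from -0.46 to 0.18, *sox2* from -0.88 to 0.056, *nes* from -0.51 to 0.12, *sox19a* from -0.67 to 0.019, *ccng1* from -0.48 to 1.31 and *cdk1* from -0.81 to 0.096. At 27 hpf *ascl1b* was at 0.055 with 2 RUVs factors. With 1 library left out there *ascl1b* ranged from -0.56 to 0.035 and *gfap* from -0.027 to 0.66.

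Whether replicate numbers pair the samples could not be settled from the values. Deviations from a group mean cancel out within the group, and the libraries that stood apart weigh on them. Deviations of same-numbered libraries from their group means correlated at -0.78, -0.71 and 0.64 in the *magoh* table, at -0.15, -0.47 and -0.17 and at -0.17, -0.32 and -0.45 in the *rbm8a* tables at 21 and 27 hpf, and at 0.18 in the *upf1* table, which has only 2 pairs. With a replicate block 0 genes were called in each mutant comparison and 414 in the morphants, and no member changed its call.

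Depth limits the low members in the shallowest libraries of the *rbm8a* table at 21 hpf, those labelled mutant replicates 2 and 3. They held 1561184 and 3063243 reads, and *ascl1a* had 8 reads in each.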
